A study of Mus musculus with 6 samples.

Results

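The genes described here are the signalling chain of the transcription factor NF-kB and a set of its textbook target genes, 35 genes in all. They were chosen by name from knowledge of the pathway, with earlier results of these data known. A gene was kept when a probe carrying its symbol was detected (detection p under 0.05) on at least 3 of the 6 arrays. Of the 35 genes, 31 were named by a probe used here and all 31 passed, out of 9478 genes tested, while Nfkb1, Chuk, Traf3 and Ripk1 were not analysed here. Of the 31 genes, 30 were detected on all 6 arrays, and Nfkbib, the one nearest to the limit, was detected on 3 insulin arrays and 2 vehicle arrays.

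All arrays came from Mvt-1, a mammary tumour line that arose in mice with Myc and Vegf transgenes, grown as a monolayer and kept without serum for 16 h. Insulin (10 nM, 90 min) was given to one group and vehicle to the other, with 3 arrays of each. Transcript levels were read on single-colour Illumina beadchips, and whether replicates were separate cultures is not stated, so p-values rest on a spread between arrays that could be technical only. The groups are thus 1 cell line, with insulin at 1 time and 1 dose. No time is given for vehicle in the sample labels used.

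NF-kB is a dimer of Rel-family proteins that inhibitors of the IkB family hold in the cytoplasm. Receptors for TNF, interleukin 1 and bacterial products assemble TRAF and cIAP ubiquitin ligases, which recruit the kinase TAK1 and the IKK complex. IKK phosphorylates IkB, IkB is degraded, and the freed dimer enters the nucleus and binds kB motifs, where it induces inflammatory genes together with its own inhibitors, among them the genes for IkB-alpha and A20. In mammary epithelium the pathway is known for its part in gland development and in the inflammatory signalling of tumours.

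Promoter letters are shown for Nfkbia, Tnfaip3 and Icam1, the genes most often used as readouts of NF-kB, because the values below can be set beside a motif that the factor binds. The windows come from RefSeq on GRCm38.p6 and run from 250 bases before to 50 bases after an annotated start site, 5′ to 3′ on the gene's strand. Capitals mark GGAAANTCC, a narrow 9-letter form of the kB motif, matched on either strand. Other kB-like letters are not marked.
Nfkbia, chr12:55492598-55492897, minus strand: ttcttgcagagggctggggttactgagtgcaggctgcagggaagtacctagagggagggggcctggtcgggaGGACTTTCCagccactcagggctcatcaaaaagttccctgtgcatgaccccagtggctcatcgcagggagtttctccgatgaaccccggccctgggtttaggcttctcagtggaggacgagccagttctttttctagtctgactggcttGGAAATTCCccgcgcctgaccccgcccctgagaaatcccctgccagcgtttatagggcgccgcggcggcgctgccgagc
Tnfaip3, chr10:19015361-19015660, minus strand: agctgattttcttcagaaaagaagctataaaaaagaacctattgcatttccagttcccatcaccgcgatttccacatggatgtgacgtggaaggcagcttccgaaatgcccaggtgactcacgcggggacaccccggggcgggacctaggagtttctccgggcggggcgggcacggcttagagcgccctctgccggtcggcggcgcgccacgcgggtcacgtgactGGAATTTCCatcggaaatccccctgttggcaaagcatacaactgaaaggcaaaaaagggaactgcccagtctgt
Icam1, chr9:21015690-21015989, plus strand: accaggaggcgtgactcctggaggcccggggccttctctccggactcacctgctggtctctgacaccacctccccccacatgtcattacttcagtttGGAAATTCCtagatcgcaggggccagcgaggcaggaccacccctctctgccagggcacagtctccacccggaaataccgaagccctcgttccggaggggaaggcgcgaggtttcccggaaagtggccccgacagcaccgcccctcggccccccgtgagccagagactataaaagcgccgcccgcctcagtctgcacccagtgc
The Nfkbia window held 2 matches, starting 178 and 29 bases before the start site. The Tnfaip3 window shown held 1, starting 24 bases before its start site, and a further Tnfaip3 window held 0. The Icam1 window held 1, starting 153 bases before its start site. Over all 32851 windows of this length, 412 held the motif on either strand, or 1.25%. A looser kB-like motif, a run of G and a pair of C around a spacer of any bases, can overlap the first and stood in 16686 windows, or 50.8%. The windows shown held 2 matches of it for Nfkbia, 8 for Tnfaip3 and 1 for Icam1.

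Of the 35 genes, 29 had a window, and Relb, Nfkbiz, Nfkb1, Tab1, Ikbkb and Malt1 had none in the table used. In 7 of the 29, or 24.1%, a window held GGAAANTCC, against 392 of 27025 genes, or 1.45%. These were Nfkbia, Tnfaip3, Icam1, Nfkb2, Map3k7, Cyld and Tnfaip2. The looser motif stood in a window of 24 of the 29, or 82.8%, against 53.5% of genes. The set was chosen by name and includes textbook targets, so a higher share is partly built in, and these differences were not tested. A match describes letters and is not by itself a binding site. One of the Nfkbia matches overlaps a match of the looser motif.

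At 90 min of insulin no gene of the set passed the test. Of the 31 genes, 0 were called higher and 0 lower (limma, Benjamini-Hochberg adjusted p under 0.05 over all 9478 genes), where 0.464% of all genes tested were called, 0.127% higher and 0.338% lower. The smallest adjusted p was 0.127, for Icam1. At an unadjusted limma p under 0.05 there were 5 of 31 genes, 1 higher and 4 lower, where 4.80% of all genes were higher and 6.15% lower at that p. The 3 insulin arrays lay clear of the 3 vehicle arrays in 8 of 31 genes (25.8%), 2 higher and 6 lower, where 15.9% of all genes did, 6.59% higher and 9.34% lower. Whether these shares differ from those of all genes was not tested.

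The changes themselves were small. The median log2 change of the 31 genes was -0.014, against -0.015 over all genes tested, and the range was from -0.49 to 0.29. The size of the change, without sign, had a median of 0.10, against 0.12 over all genes. Positive changes were found in 14 of the 31 genes (45.2%), against 46.0% of all genes. None of the 31 changed by as much as 1.5-fold in the estimate, and for 28 of them the 95% interval of the change lay within 1.5-fold in either direction. The exceptions were Icam1, Birc2 and Ikbkg, and the intervals of all 31 lay within 2-fold. Because RNA was taken from whole cultures, a change in every cell and a change in the share of cells that express a gene cannot be told apart.

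**Figure D1:**
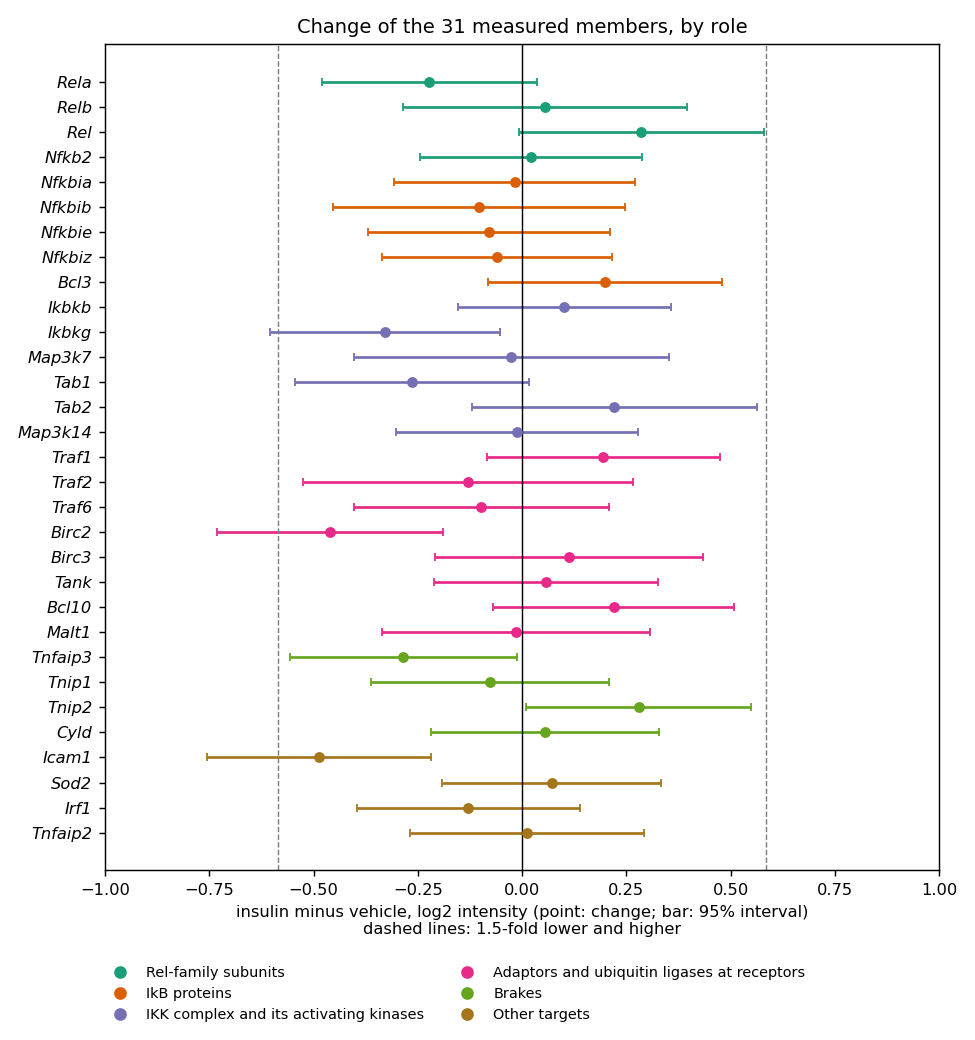
Log2 change of each of the 31 measured genes, insulin minus vehicle (x axis, log2 intensity), with its 95% interval from limma (bars, n = 3 per group), coloured by role, with dashed lines at 1.5-fold. The points lie between -0.49 (Icam1) and 0.29 (Rel), and 3 intervals, those of Icam1, Birc2 and Ikbkg, cross the lower dashed line.

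**Figure D2:**
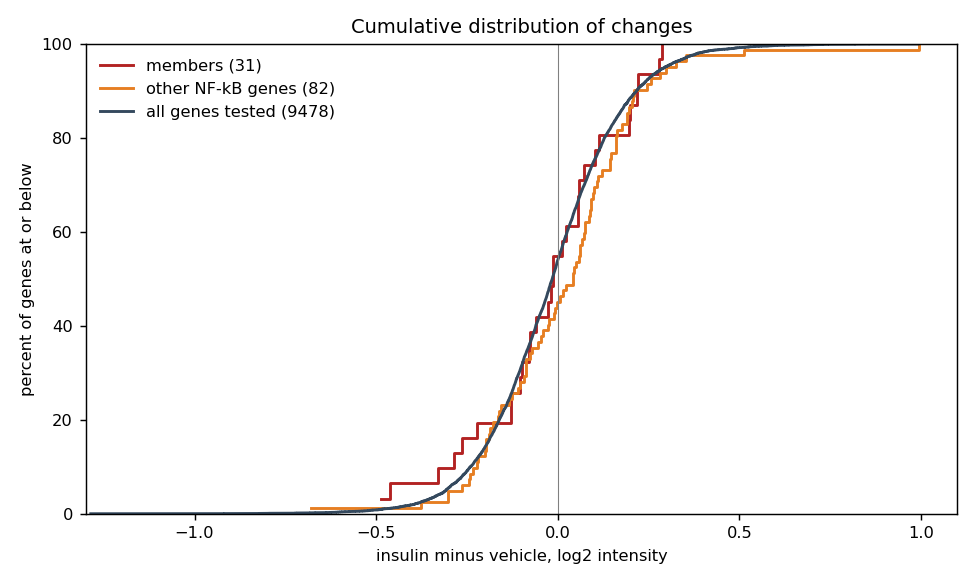
Share of genes (y axis, percent) at or below each log2 change, insulin minus vehicle (x axis), for the 31 genes of the set, the 82 other NF-kB genes tested and all 9478 genes tested. The curves of the 31 genes and of all genes run close together, with medians of -0.014 and -0.015, and the curve of the other NF-kB genes ends at Tnfrsf12a with 0.99.

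The Rel-family subunits form the factor itself. Rela encodes p65, the subunit that carries the transactivation domain of the main dimer. Its log2 intensity was 9.36, 9.22 and 9.36 on the insulin arrays, against 9.56, 9.50 and 9.55 on the vehicle arrays. Every insulin array was below every vehicle array. The log2 change, insulin minus vehicle, was -0.22 ± 0.12 (SE from the limma fit, n = 3 each; limma adjusted p = 0.533), and errors of changes below are given in the same way. Rel, the gene for c-Rel, a subunit best known from lymphocytes, stood at 5.25, 5.17 and 5.03 with insulin, against 4.87, 5.09 and 4.63 with vehicle. Its groups overlapped, with vehicle replicate 2 above insulin replicate 3, and its change of 0.29 ± 0.14 did not pass (limma adjusted p = 0.472). Rel was dim, and in the authors' deposited processed values, which have no background correction, its change was 0.10.

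Relb and Nfkb2, the subunits of the non-canonical dimer, showed no separation. Relb varied more between replicates than between groups, at 7.63, 7.37 and 7.11 with insulin and 7.63, 7.22 and 7.10 with vehicle. Nfkb2, which encodes the precursor p100, had a change of 0.022 with a 95% interval from -0.24 to 0.29.

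The genes for IkB proteins, several of which are induced by NF-kB, had log2 changes from -0.10 to 0.20. Nfkbia, the gene for IkB-alpha and a fast feedback target, had log2 intensities of 8.62, 8.67 and 8.27 on the insulin arrays and 8.64, 8.48 and 8.49 on the vehicle arrays. The groups overlapped, and the change was -0.018 ± 0.14 with a 95% interval from -0.31 to 0.27 (limma adjusted p = 0.983). A further Nfkbia probe gave -0.18 ± 0.14. Nfkbiz, the gene for the nuclear cofactor IkB-zeta, stood at 10.47, 10.51 and 10.18 with insulin and 10.40, 10.53 and 10.41 with vehicle, a change of -0.060 ± 0.13. On the probe used for each of these genes, insulin replicate 3 was the lowest of the 6 arrays. The further Nfkbia probe was lowest on insulin replicate 1, at 7.64, with insulin replicate 3 at 7.90.

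Bcl3, a nuclear IkB protein that binds p50 and p52 dimers, had the smallest p of this group. It stood at 6.85, 6.83 and 6.90 with insulin and 6.84, 6.44 and 6.70 with vehicle, a change of 0.20 ± 0.13 (limma adjusted p = 0.637). Nfkbib and Nfkbie, the genes for IkB-beta and IkB-epsilon, changed by -0.10 ± 0.17 and -0.080 ± 0.14. Of the 5 IkB genes, 4 had a negative change, where 46.0% of all genes had a positive one. In 0 of the 5 the groups lay apart, where 15.9% of all genes did, and these differences were not tested.

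Of 6 tested genes of the IKK complex and the kinases above it, 3 had arrays that lay apart (1 higher, 2 lower), where 15.9% of all genes did, and this difference was not tested. Ikbkg encodes NEMO, the regulatory subunit that ties the complex to ubiquitin chains. Its log2 intensity was 7.12, 7.40 and 7.35 with insulin, against 7.71, 7.49 and 7.66 with vehicle. The groups lay apart, with a change of -0.33 ± 0.13, or 1.26-fold lower, and a 95% interval from -0.61 to -0.052 (limma unadjusted p = 0.0225, adjusted p = 0.374). A dimmer Ikbkg probe gave -0.093 ± 0.16, and the mean of both probes gave -0.21.

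Ikbkb, which encodes the catalytic subunit IKK-beta, stood at 6.42, 6.28 and 6.31 with insulin and 6.23, 6.22 and 6.26 with vehicle. Insulin arrays lay above vehicle arrays, but the change was 0.10 ± 0.12 (limma adjusted p = 0.817). Tab1, an activating partner of TAK1, stood at 8.62, 8.52 and 8.90 with insulin and 8.91, 9.01 and 8.90 with vehicle. The groups lay apart only in the third decimal, between insulin replicate 3 and vehicle replicate 3, and the change was -0.26 ± 0.13 (limma adjusted p = 0.486). Further Tab1 probes gave 0.24 ± 0.14 and -0.0077 ± 0.13, and the mean of the probes gave -0.012. The probe with 0.24 was dim, with raw signals of 75.6 to 86.4. It was detected on 3 insulin arrays and 1 vehicle array, so it met the filter through the insulin arrays and no support is drawn from it. It also enters the mean of the probes.

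Tab2, the adaptor that links TAK1 to ubiquitin chains, stood at 9.68, 9.70 and 9.05 with insulin and 9.24, 9.38 and 9.16 with vehicle. A pair of insulin arrays lay above all vehicle arrays, but insulin replicate 3 lay below them, and the change was 0.22 ± 0.16 (limma adjusted p = 0.675). Without insulin replicate 3 it was 0.44 (limma adjusted p = 0.196). Map3k7, the gene for TAK1 itself, changed by -0.026 ± 0.18, while a further, dimmer probe for it gave -0.34 ± 0.14 (limma unadjusted p = 0.0258). Map3k14, the gene for NIK, the kinase of the non-canonical branch, changed by -0.012 ± 0.14.

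**Figure D3:**
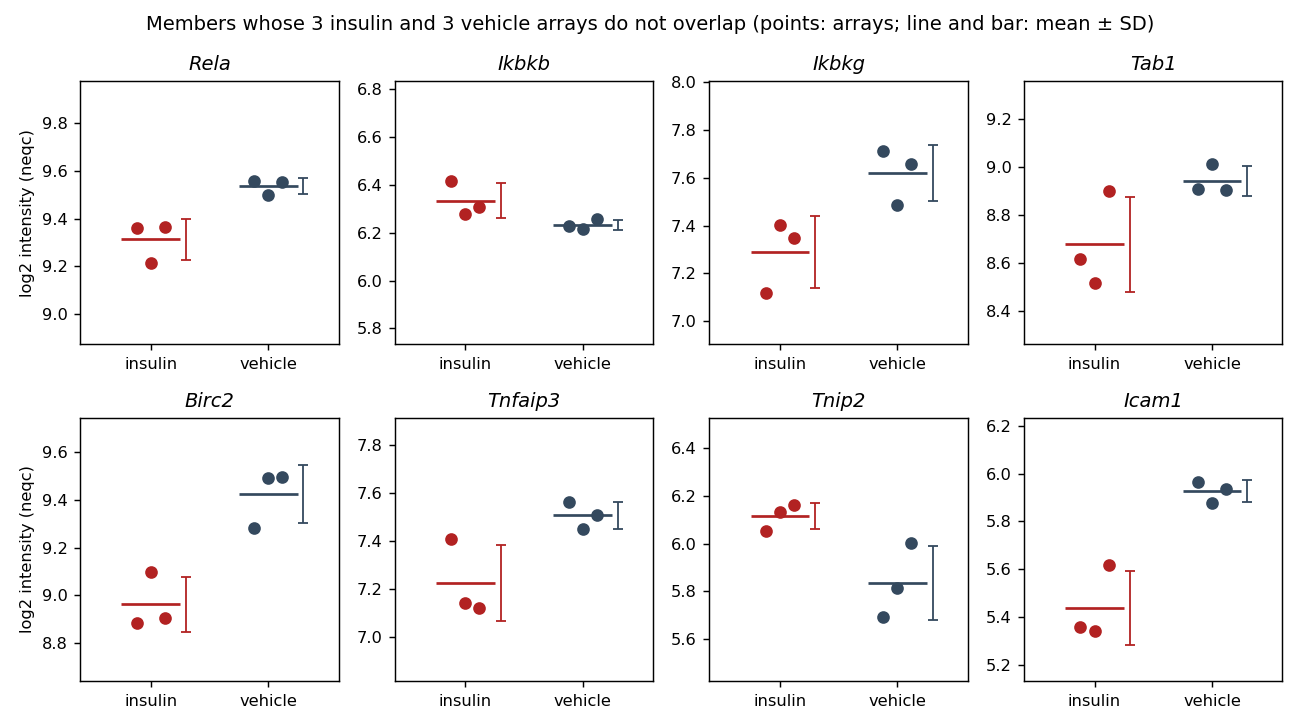
Log2 intensity after neqc (y axis, one span of 1.1 in every panel, each with its own centre) on each insulin array (left, red) and vehicle array (right, dark) for the 8 genes whose groups did not overlap, with the mean and SD of 3 arrays. Icam1 and Birc2 have the widest gaps between groups, and in Tab1 the nearest arrays, at 8.90 in both groups, all but touch.

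Among adaptors and ubiquitin ligases at the receptors, Birc2 stood furthest from 0. Birc2 encodes cIAP1, a ubiquitin ligase that modifies RIPK1 at the TNF receptor and keeps NIK low in resting cells. Its log2 intensity was 8.89, 9.10 and 8.91 with insulin, against 9.28, 9.49 and 9.49 with vehicle, and its raw signals were 520, 596 and 547.5 with insulin against 683.5, 780.4 and 787.5 with vehicle. Insulin arrays lay below vehicle arrays throughout, with a log2 change of -0.46 ± 0.13, or 1.38-fold lower, and a 95% interval from -0.73 to -0.19 (limma unadjusted p = 0.00232, adjusted p = 0.157).

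When the variance prior followed a robust trend on intensity, Birc2 was called (limma adjusted p = 0.0456), the only call of any of the 31 genes under the 15 alternatives. Over those alternatives its adjusted p ranged from 0.0456 to 0.61. Its 4 probes did not move alike. A second probe stood at 7.36, 7.36 and 7.64 with insulin and 7.69, 7.76 and 7.78 with vehicle, a change of -0.29 ± 0.13. The other two, both dim, gave 0.081 ± 0.16 and 0.0058 ± 0.14. With the mean of the 4 probes the change was -0.17 (limma adjusted p = 0.61).

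Birc3, the gene for the related cIAP2 and itself an NF-kB target, changed by 0.11 ± 0.15. It stood at 4.57, 5.10 and 4.87 with insulin and 4.64, 4.59 and 4.97 with vehicle, with overlapping groups. Bcl10, the adaptor of the CARD and MALT1 complex, stood at 9.66, 9.68 and 9.51 with insulin and 9.34, 9.63 and 9.22 with vehicle, a change of 0.22 ± 0.14 (limma adjusted p = 0.605). Its partner Malt1, a paracaspase, changed by -0.014 ± 0.15. Of the remaining adaptors, Traf1, Traf2 and Traf6 changed by 0.19 ± 0.13, -0.13 ± 0.19 and -0.097 ± 0.15. Tank, which binds TRAF proteins and TBK1, changed by 0.058 ± 0.13, with 0.22 and 0.28 from further probes.

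The brakes of the pathway included genes on both sides of 0. Tnfaip3 encodes A20, a ubiquitin-editing enzyme that ends IKK signalling and is itself induced by NF-kB. Its log2 intensity was 7.41, 7.14 and 7.12 with insulin, against 7.56, 7.45 and 7.51 with vehicle. The insulin arrays were all lower, with a change of -0.28 ± 0.13, or 1.22-fold lower (limma unadjusted p = 0.0409, adjusted p = 0.434). Tnip2, a partner of A20 also known as ABIN-2, stood at 6.05, 6.13 and 6.16 with insulin and 5.69, 5.82 and 6.0 with vehicle. The insulin arrays were all higher, with a change of 0.28 ± 0.13 (limma unadjusted p = 0.0435, adjusted p = 0.442). A dim further Tnip2 probe gave 0.029 ± 0.14, and in the authors' deposited processed values Tnip2 changed by 0.14.

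Tnip1, the gene for ABIN-1, another partner of A20, stood at 9.62, 9.82 and 9.46 with insulin and 9.67, 9.85 and 9.60 with vehicle, a change of -0.077 ± 0.13. A further Tnip1 probe was detected on 3 insulin arrays and 0 vehicle arrays, so it passed the detection filter only through the insulin arrays and no test is drawn from it. Its mean log2 intensity was 4.64 with insulin and 4.33 with vehicle, where it was not above background. Cyld, a deubiquitinase that removes the chains that IKK reads, changed by 0.055 ± 0.13.

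Of the other targets, Icam1 had the smallest p of all 31 genes. It encodes an adhesion molecule that binds leukocyte integrins and is a standard NF-kB reporter on epithelial and endothelial cells. Its log2 intensity was 5.36, 5.34 and 5.62 with insulin, against 5.97, 5.88 and 5.94 with vehicle, from raw signals of 97.6, 100.5 and 108.7 with insulin and 118.1, 116.4 and 120 with vehicle. The insulin arrays were all lower, with a log2 change of -0.49 ± 0.13, or 1.40-fold lower, and a 95% interval from -0.76 to -0.22 (limma unadjusted p = 0.00142, adjusted p = 0.127). The median signals of the arrays were 76 to 77.1, so Icam1 was a dim probe. In the authors' deposited processed values the Icam1 change was -0.23, and with normexp fitted to the signals it was -0.27. Its adjusted p ranged from 0.0655 to 0.41 over the 15 alternatives, so Icam1 passed in 0 of them.

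Sod2, the mitochondrial superoxide dismutase and a strongly inducible NF-kB target, stood at 11.15, 11.21 and 11.38 with insulin and 11.14, 11.17 and 11.22 with vehicle. Its groups overlapped, and its change was 0.071 ± 0.12 with a 95% interval from -0.19 to 0.33 (limma adjusted p = 0.887). Irf1, a transcription factor of interferon responses, changed by -0.13 ± 0.13 on each of its brightest probes and by 0.23 ± 0.13 and 0.18 ± 0.13 on a dimmer pair. Tnfaip2, a TNF-induced gene, changed by 0.012 ± 0.13. Of the 7 genes whose promoter window held GGAAANTCC, Icam1 and Tnfaip3 had the lowest changes, at -0.49 and -0.28, and the other 5 lay between -0.026 and 0.055.

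Across the set, 12 genes had a further detected probe, 22 such probes in all. Of these, 12 moved to the same side as the probe used and 10 to the opposite side. The genes with opposite signs were Tab1, Traf6, Birc2, Tnip1, Cyld, Irf1 and Tnfaip2. In Tab1 the opposite sign came from the dim probe detected on 1 vehicle array, and in Tnip1 from dim probes. Further probes ranged from -0.34 to 0.31, and no probe of the set passed the threshold over all detected probes (limma adjusted p under 0.05 for 0 of 53; further probes at an unadjusted p under 0.05 numbered 3). These 3 belonged to Map3k7, Birc2 and Tnip1. The Tnip1 probe is the one that passed the filter only through the insulin arrays, so its p supports nothing. That probe also set the upper end of the range, 0.31, and counts among the 10 of opposite sign. The next highest further probe, of Tank, gave 0.28.

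**Figure D4:**
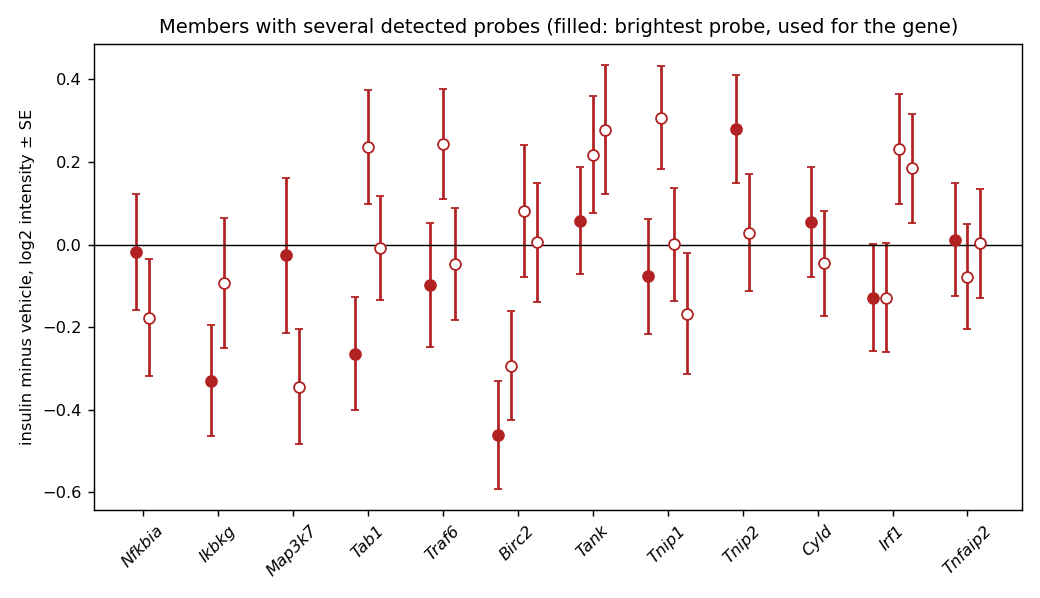
Log2 change, insulin minus vehicle, with its standard error (y axis) for every detected probe of the 12 genes with more than 1, filled for the brightest probe, which stands for the gene, and open for the others. In Birc2 the probe used lies at -0.46 and the others between -0.29 and 0.081.

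The wider pathway was described with lists of other NF-kB genes. These lists were also chosen with earlier results of these data known, so calls in them are no independent readout of the pathway. Of 50 receptors, adaptors and regulators, 43 were tested, with 1 called higher (2.33%), 0 lower and a median log2 change of 0.024. Over all genes tested, 0.464% were called and the median was -0.015, and these differences were not tested. The called gene was Tnfrsf12a, the receptor for the cytokine TWEAK, which feeds the non-canonical branch. It stood at 8.40, 9.36 and 8.94 with insulin, against 8.02, 8.14 and 7.55 with vehicle, and rose by 0.99 ± 0.20 (limma adjusted p = 0.0390), a call kept in 6 of 15 alternatives. Leaving out insulin replicate 2, vehicle replicate 1, vehicle replicate 2 or vehicle replicate 3 ended it, as did other settings, with limma adjusted p up to 0.307.

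Of 50 other target genes, 39 were tested, with 0 called higher, 1 lower (2.56%) and a median of 0.067. Here too 0.464% of all genes were called and their median was -0.015, and the differences were not tested. The called gene was Il15, a cytokine that sustains natural killer and memory T cells. It stood at 8.10, 8.14 and 7.88 with insulin, against 8.88, 8.75 and 8.54 with vehicle, and fell by 0.68 ± 0.13 on the log2 scale (limma adjusted p = 0.0390). Il15 passed in 8 of 15 alternatives and in 0 of the 6 that left out 1 array, where its adjusted p ran from 0.0684 to 0.158.

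On the arrays, 17617 to 18232 of 45281 probes were detected, and the lowest correlation between arrays over the genes tested was 0.988. Epithelial markers Krt8, Krt18 and Cdh1 were detected on at least 3 arrays, Cdh1 only on 2 insulin arrays and 1 vehicle array. Krt19 and Epcam were detected on none, and Cldn7 did not pass the filter. Thus 3 of 6 epithelial markers were found, and 3 of 6 fibroblast markers as well. Of these, 2 epithelial and 3 fibroblast markers were detected on all 6 arrays. Lymphocyte markers Ptprc, Cd3e and Cd3d were detected on no array, and neither were the macrophage genes Csf1r and Lyz2. Of 20 markers of fibroblast, endothelial, immune and fat cells on the array, 4 passed the detection filter (the fibroblast genes Col3a1, Pdgfrb and Dcn and the macrophage gene Cd14). None of these 4 was called (0 by limma, and 0 at an unadjusted limma p under 0.05).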

How the data were processed

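The authors' deposited table of non-normalized values gave 6 arrays of 45281 probes each as linear intensity, not background-subtracted, per the file headers. Beside it stood a detection p-value per probe and array, per the file headers. A second deposited table, the authors' processed intensity values, equalled a quantile normalization of those signals and was neither centred nor logged. The submitters' processing notes name GenomeStudio, and its version and settings are not given in the sources used here. Signals were corrected with neqc in limma 3.58.1 (R 4.3.3), with background from the detection p-values and an offset of 16, then quantile-normalized and put on a log2 scale. Differences of dim probes are stretched by this step. Probes detected (p under 0.05) on at least 3 arrays with 1 gene symbol in the platform annotation were kept, and the brightest probe stood for a gene, which gave 9478 genes. Levels of different probes cannot be compared. Groups came from the sample titles. The test of insulin against vehicle was limma's moderated test (two-sided; lmFit, then eBayes), with Benjamini-Hochberg adjustment over all genes. The fit was also run on simulated data, and no result given here rests on that run.

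Genes were given array by array where an unadjusted p was under 0.05, where groups did not overlap, where a gene had the smallest p or the highest signal of its role, and for Nfkbia, Rela, Ikbkg, Tnfaip3 and Icam1. From the lists of other genes the called ones were named. Birc3 and Relb were given array by array after their values were seen. The members and lists were chosen with earlier results of these data known. Alternatives changed the background correction, scaling, filter, probe summary, variance model, replicate block or left out 1 array.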

Additional observations from a re-analysis of the deposited data

How the results depend on the processing

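Of 464 values of the 31 genes under 15 alternatives, 1 passed the threshold, that of Birc2 with a robust variance trend, where the genes of the set called lower numbered 1 in place of 0. The sign turned in 29 values of 16 genes, all with a change of at most 0.13 in size in the analysis reported, and the 10 genes with a change over 0.2 kept their sign throughout. The median change of the set ran from -0.041 to 0.051 when 1 array was left out, with 0.051 without vehicle replicate 1, where 19 in place of 14 genes were positive.

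Over all genes, 12 were called higher and 32 lower. These counts were 0 and 0 without the filter on dim probes (limma, 1645 of 19057 genes at an unadjusted p under 0.05), 34 and 49 with the trended, robust model, 13 and 16 with normexp fitted to the signals, 12 and 16 with a neqc offset of 50, and 11 and 11 with the authors' deposited processed values. Leaving out 1 array gave 0 to 37 higher, with 37 without insulin replicate 3, and 2 to 31 lower. The 2 calls among other NF-kB genes became 1 with a neqc offset of 50, the authors' deposited processed values, the mean of probes or the trended, robust model, 0 without the filter, and 0 to 1 without 1 array. The causes of these moves were not tested.

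The replicate block gave 31 genes higher and 44 lower and no call among the 31 genes, where Icam1 had a limma adjusted p of 0.0798. Deviations of same-numbered arrays correlated at 0.0901, 0.152 and 0.131, and each insulin array correlated best with its own number, a hint from the data and not from the design. The number of arrays and the low signals limit what could be detected.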

Other observations

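Among the 82 other NF-kB genes tested, 10 had an unadjusted limma p under 0.05, 5 on each side of 0, a share near that of all genes (1038 of 9478). The genes below other than Tnfrsf12a and Il15 were singled out after their values were seen. None of these 8 passed over all genes. Plaur, the urokinase receptor, stood at 6.69, 6.78 and 6.88 with insulin and 6.37, 6.53 and 6.39 with vehicle, a log2 change of 0.35 ± 0.12 (limma adjusted p = 0.311). Il6, the inflammatory cytokine, was dim and was detected on 3 insulin arrays and 2 vehicle arrays. It stood at 4.85, 4.99 and 4.78 with insulin and 4.44, 4.67 and 4.53 with vehicle, a change of 0.33 ± 0.13 (limma adjusted p = 0.368). Gadd45b, a stress-induced regulator of MAP kinase signalling, changed by 0.30 ± 0.14. In Plaur, Il6 and Gadd45b the insulin arrays all lay above the vehicle arrays, as they did in 6.59% of all genes tested. Genes picked by a small p tend to have groups that lie apart, so this adds no support.

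Vcam1, an adhesion molecule like Icam1, stood at 8.55, 8.75 and 8.58 with insulin and 8.88, 9.05 and 8.86 with vehicle, a change of -0.30 ± 0.13 (limma adjusted p = 0.398). Tlr4, the receptor for lipopolysaccharide, stood at 8.06, 8.17 and 8.08 with insulin and 8.32, 8.45 and 8.34 with vehicle, a change of -0.26 ± 0.12. Otulin, a deubiquitinase of linear chains, changed by -0.30 ± 0.14. In Vcam1, Tlr4 and Otulin the insulin arrays all lay below the vehicle arrays, as they did in 9.34% of all genes tested. These genes too were picked by a small p, so this adds no support. Eda2r, a receptor of the TNF receptor family, was among the 10 but was detected on 0 insulin arrays and 3 vehicle arrays, so it passed the detection filter only through the vehicle arrays and its p supports nothing. Its mean log2 intensity was 4.33 with insulin, where it was not above background, and 4.70 with vehicle. Itch, a ubiquitin ligase that works with A20, changed by 0.51 ± 0.17 with overlapping groups (limma adjusted p = 0.294).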
